A study of Bos taurus with 39 samples.

Results

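bta-miR-155 was followed through in vitro maturation of bovine oocytes as 1 of the 1030 known miRNAs in the deposited count table, or 1 of 1995 when the predicted miRNAs are included. It was selected on its measured level over time in these libraries, at 0, 1, 6 and 22 h, so its change over time is given as a description without a test. The 39 libraries came from bovine oocytes in 13 conditions, with 3 libraries in each. The control group was left within the cumulus-oocyte complexes (COCs) during 1, 6 or 22 h of maturation, and the cumulus cells were vortexed off in hyaluronidase afterwards. CBX oocytes were handled likewise in medium that held carbenoxolone, which blocks gap junctions. Oocytes of the co-culture group were denuded beforehand and shared their medium with COCs across a porous insert that prevented contact, and those of the DO group were denuded and cultured by themselves. Another 3 control libraries carry the label 0 h, and nothing more is stated of them. All oocytes came from slaughterhouse ovaries, and each library of the maturing oocytes was a pool made by joining replicate cultures. Oocytes with a visible polar body were selected after maturation, and the methods do not say at which times. This selection may therefore differ between time points, and its part was not tested. Denuded oocytes were also treated with pronase to remove the zona, so the isolation step differed between groups and its part in any difference between denuded and enclosed oocytes cannot be told apart from the culture itself.

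miR-155 is cut from a long non-coding transcript known as BIC or the miR-155 host gene. It is best known from activated lymphocytes and macrophages, where NF-kB and AP-1 raise its transcription, and it represses targets such as SOCS1 and INPP5D, brakes on cytokine and phosphoinositide signalling. Fully grown oocytes are joined to the surrounding cumulus cells by gap junctions until these close during maturation, while the nuclear envelope breaks down and the oocyte proceeds to metaphase. In the RefSeq annotation of the assembly ARS-UCD2.0, which is a later assembly than the one used for the counts, the gene MIR155 lies between MRPL39, which encodes a mitochondrial ribosomal protein, and the lncRNA gene LOC132345453.

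Levels of bta-miR-155 are set beside 3 other miRNAs whose mature sequences were taken from the assays of the study. miR-21-5p is shown because it is an abundant oocyte and cumulus miRNA with values of its own below, and miR-92a and miR-93 because their summed counts served as a second scale. Each sequence runs 5′ to 3′, and the capitals mark the seed, bases 2 to 8. The 3 seeds differ, so these miRNAs belong to separate seed families.
miR-21-5p: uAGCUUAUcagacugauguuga
miR-92a: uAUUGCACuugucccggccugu
miR-93: cAAAGUGCuguucgugcaggua

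Total counts per library ranged from 11985 to 175429, with a median of 70069, and known miRNAs held between 37.8% and 52.7% of them. bta-miR-155 had between 5 and 911 counts in a library and 6139 over all 39, and it lay above a floor of 3 counts in every library. That floor corresponded to 17.1 to 250 CPM, the unit of counts scaled to a common TMM-normalized library size that is used for all levels here. Counting error was therefore large at 1 h and small at 22 h. The smallest count, 5 in the third co-culture library at 1 h, has an exact Poisson 95% interval of 1.62 to 11.7, and the largest, 911 in the second control library at 22 h, one of 853 to 972. These intervals cover counting error only. Replicates spread far beyond it in all 13 conditions, where the variance of the counts was 4.58 to 218 times that of counting alone. Totals were under 25000 in 3 libraries, namely the first control library at 0 h, the first control library at 6 h and the second CBX library at 22 h, and these are named below where they carry a value.

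Before and shortly after the start of maturation bta-miR-155 was a low-level miRNA. In control oocytes at 0 h it had 782, 107 and 532 CPM in replicates 1, 2 and 3, and the first of these values rests on 9 counts. In control oocytes at 1 h it had 276, 457 and 156 CPM. Both control time points overlapped, with means of 474 ± 341 and 297 ± 151 CPM (SD, n = 3). CBX oocytes at 1 h had 1250, 288 and 430 CPM, co-culture oocytes 405, 193 and 62.2 CPM, and DO oocytes 89.4, 557 and 192 CPM. The first CBX library, with 146 counts, stood above every other library at 1 h. The 4 groups overlapped, and the CBX mean was 656 ± 519 CPM, the co-culture mean 220 ± 173 CPM and the DO mean 279 ± 246 CPM (SD, n = 3).

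At 6 h the level was higher in the mean of each group. Control oocytes had 4080, 1878 and 2333 CPM, a mean of 2764 ± 1162 (SD, n = 3), and all 3 lay above the control libraries at 1 h and at 0 h. The highest of them is a library with a total of 20180 counts. Co-culture oocytes had 1571, 448 and 2968 CPM, a mean of 1663 ± 1262 (SD, n = 3), and these too lay above all 3 libraries of their group at 1 h. CBX oocytes had 789, 1136 and 3635 CPM, a mean of 1853 ± 1553 (SD, n = 3), and overlapped their own group at 1 h, where the first library reached 1250 CPM. DO oocytes had 972, 550 and 447 CPM, a mean of 656 ± 278 (SD, n = 3), and overlapped DO at 1 h, where the second library reached 557 CPM. DO oocytes thus had the lowest mean of the groups at 6 h, and control oocytes the highest.

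At 22 h bta-miR-155 was among the abundant miRNAs in every library. Control oocytes had 6807, 12838 and 3782 CPM, a mean of 7809 ± 4610 (SD, n = 3). DO oocytes had 2859, 8141 and 5354 CPM, a mean of 5451 ± 2642 (SD, n = 3). CBX oocytes had 1980, 6009 and 3645 CPM, a mean of 3878 ± 2025 (SD, n = 3), with the highest value in the library of 18796 counts. Co-culture oocytes had 2214, 1567 and 2949 CPM, a mean of 2243 ± 691 (SD, n = 3). Co-culture was thus the lowest of the groups at 22 h, and its libraries did not overlap those of the control. Ordered by mean CPM, the 13 conditions ran from control at 22 h, through DO and CBX at 22 h, control at 6 h and co-culture at 22 h, then CBX and co-culture at 6 h, down to CBX at 1 h, DO at 6 h, control at 0 h, control at 1 h, DO at 1 h and co-culture at 1 h. Each neighbouring pair in this order overlapped between libraries. The share of bta-miR-155 in the counts of known miRNAs went from 0.0555% in co-culture at 1 h to 1.72% in control at 22 h.

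**Figure D1:**
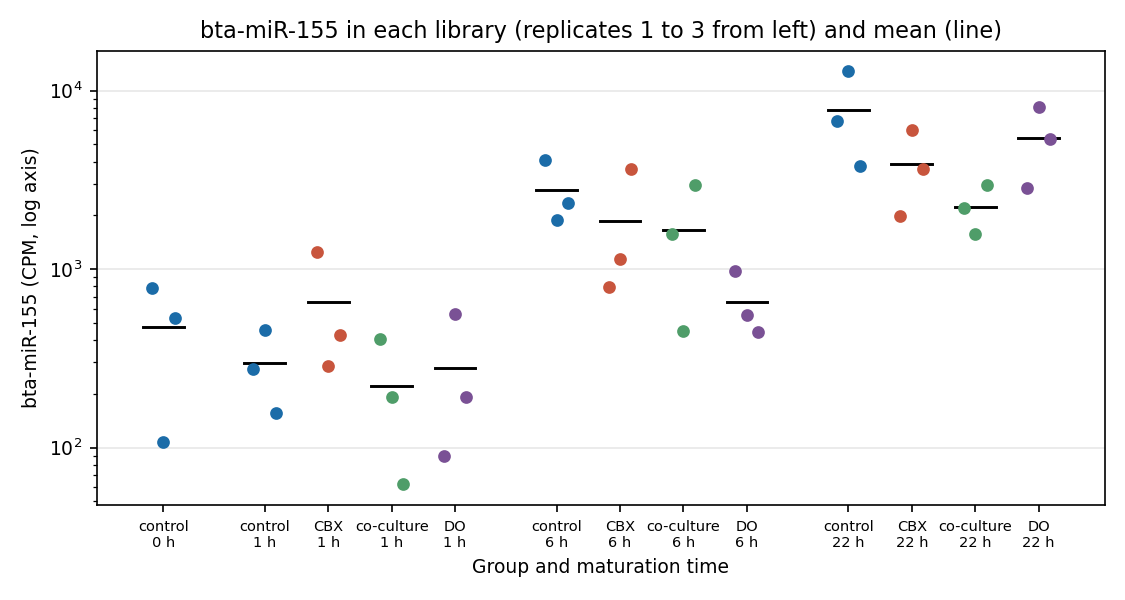
Level of bta-miR-155 in CPM on a log axis in each of the 39 libraries, by group and maturation time, with replicates 1 to 3 from left to right and a line at the mean of 3. Libraries at 0 and 1 h lie between 62.2 and 1250 CPM, those at 22 h lie between 1567 and 12838 CPM, and at 6 h the DO libraries, at 447 to 972 CPM, lie below the 3 control libraries.

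The course of each group is given on the scale of mean log2 CPM, and the difference in course between groups was not tested. From 1 to 6 h control oocytes were higher by 3.15, which is 8.86-fold, and higher in 3 of 3 replicates. Co-culture oocytes were higher by 2.70 (6.50-fold, 3 of 3 replicates), CBX oocytes by 1.42 (2.67-fold, 2 of 3) and DO oocytes by 1.41 (2.65-fold, 2 of 3). With 1 replicate left out, this difference ran from 2.84 to 3.73 in control and from 1.51 (without replicate 3) to 3.49 in co-culture. It ran from 0.62 (without replicate 3) to 2.45 (without replicate 1) in CBX, and from 0.55 (without replicate 1) to 2.12 (without replicate 2) in DO. The range of co-culture overlapped that of control, and the ranges of co-culture, CBX and DO overlapped. From 6 to 22 h DO oocytes were higher by 2.96 (7.76-fold) with no overlap between the time points, against 1.39 in control, 1.23 in CBX and 0.74 in co-culture, where the time points overlapped. Over the replicates left out these ranges were 2.52 to 3.67 in DO, 0.71 (without replicate 2) to 1.75 in control, 0.65 (without replicate 2) to 1.84 in CBX and 0.24 (without replicate 2) to 1.12 (without replicate 3) in co-culture. Over the whole span from 1 to 22 h the difference was 4.54 in control (23.3-fold), 4.36 in DO (20.6-fold), 3.44 in co-culture (10.9-fold) and 2.64 in CBX (6.24-fold), and in each group all libraries at 22 h lay above all at 1 h. By 6 h the mean of control oocytes had covered 69.4% of this log2 span, that of co-culture 78.5%, of CBX 53.8% and of DO 32.3%, and these shares carry the same dependence on single replicates. Within the control group, 1 h lay 0.39 below 0 h, with 1 of 3 replicates higher, and 6 and 22 h lay 2.75 and 4.15 above it. The difference between 0 and 1 h had no stable direction, as it was 0.12 without replicate 1, -1.52 without replicate 2 and 0.22 without replicate 3. In CBX, the first replicate carried the small difference: without it the 22 h level was 3.64 above that at 1 h.

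For scale, the same differences were computed for the 598 miRNAs that passed the low-count filter over the 13 conditions, 146 of them known. A mean log2 CPM higher by at least 1 at 6 h than at 1 h was found for 4.52% of the 598 in control oocytes, 2.01% with CBX, 2.17% under co-culture and 1.34% for DO, and the 3 later libraries lay above the 3 earlier ones for 5.35% in control and 7.19% in co-culture. From 0 h, the 3 later libraries of the control group lay above the earlier ones for 3.85% of miRNAs at 6 h and 4.18% at 22 h. From 1 to 22 h, the 3 later libraries lay above the earlier ones for 4.85% of miRNAs in control, 10.7% in DO, 8.03% in CBX and 6.02% in co-culture, and from 6 to 22 h for 9.2% in DO. bta-miR-155 had the largest difference between 1 and 6 h of the 146 known miRNAs in all 4 groups, and of all 598 in each group but CBX, where it was number 2. Averaged over the groups its difference between 1 and 6 h was 2.17, and it was the 1 miRNA of 598 to reach 1, with a median of -0.01 over all of them. The next known miRNAs were bta-miR-449a at 0.68, a member of the miR-34 family that promotes the formation of motile cilia, and bta-miR-1246 at 0.54. From 1 to 22 h bta-miR-155 had the largest difference of the 146 in control, co-culture and DO, and in CBX bta-miR-1246, at 3.44, exceeded it. Since bta-miR-155 was selected for this change, these places describe how it was chosen.

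**Figure D2:**
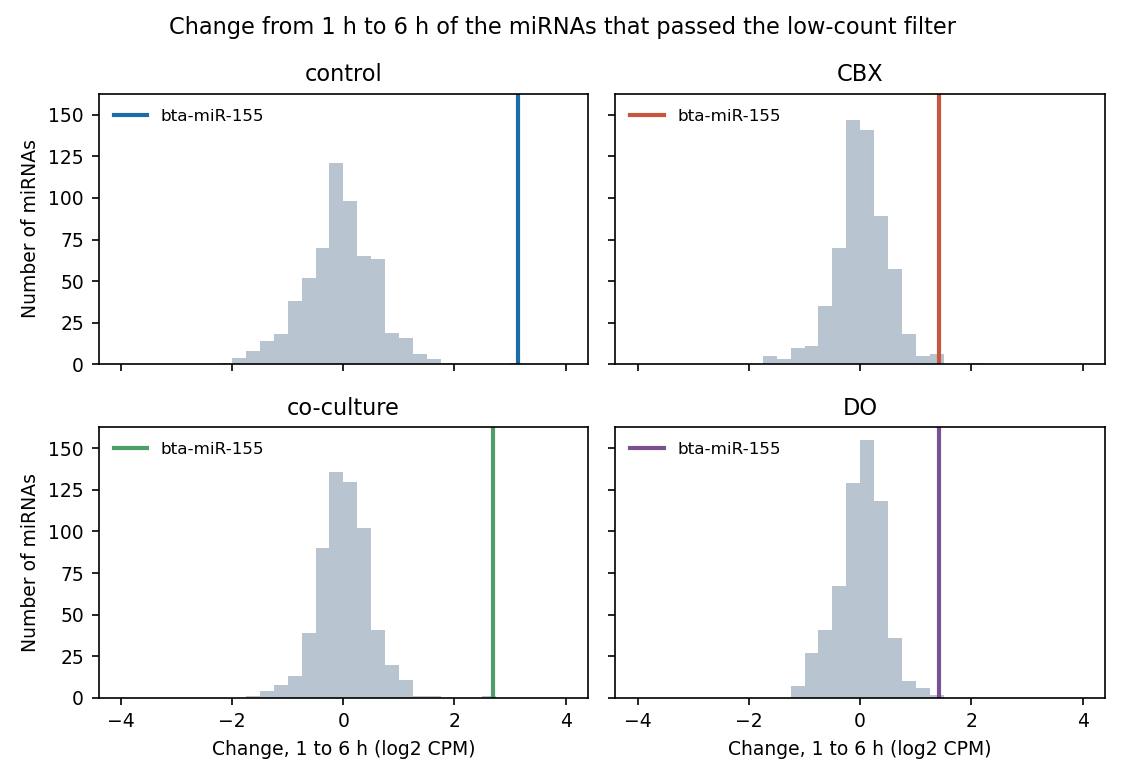
Histograms of the change in mean log2 CPM from 1 to 6 h over the 598 miRNAs that passed the low-count filter, one panel for each group, with bta-miR-155 as a vertical line at 3.15 in control, 2.70 in co-culture, 1.42 in CBX and 1.41 in DO. The line lies clear of the other miRNAs in control and co-culture and at the upper edge of them in CBX and DO.

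The rank of bta-miR-155 among known miRNAs, by mean CPM, followed the level. It was 77 in control at 0 h, and at 1 h it was 95 in control, 86 in DO, 68 in CBX and 102 in co-culture. At 6 h it was 27 in control, 37 in CBX and in co-culture, and 63 in DO. At 22 h it was 15 in control, 19 in DO, 23 in CBX and 29 in co-culture. Single libraries ranked it between 141, in the third co-culture library at 1 h, and 8, in the second control library at 22 h. At 6 h the control libraries, at 18 to 33, and the DO libraries, at 52 to 71, did not overlap in rank. Over the 36 libraries at 1, 6 and 22 h its mean was 2314 ± 2734 CPM (SD), which placed it at rank 30, between bta-let-7b at 2403 ± 1509 CPM, a member of the let-7 family of differentiation-linked miRNAs, and bta-miR-2285bf at 2159 ± 742 CPM. The SD of bta-miR-155 exceeded its own mean, whereas those of its neighbours in rank did not, as its libraries ran from 62.2 to 12838 CPM against 916 to 7285 CPM for bta-let-7b and 532 to 4027 CPM for bta-miR-2285bf.

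**Figure D3:**
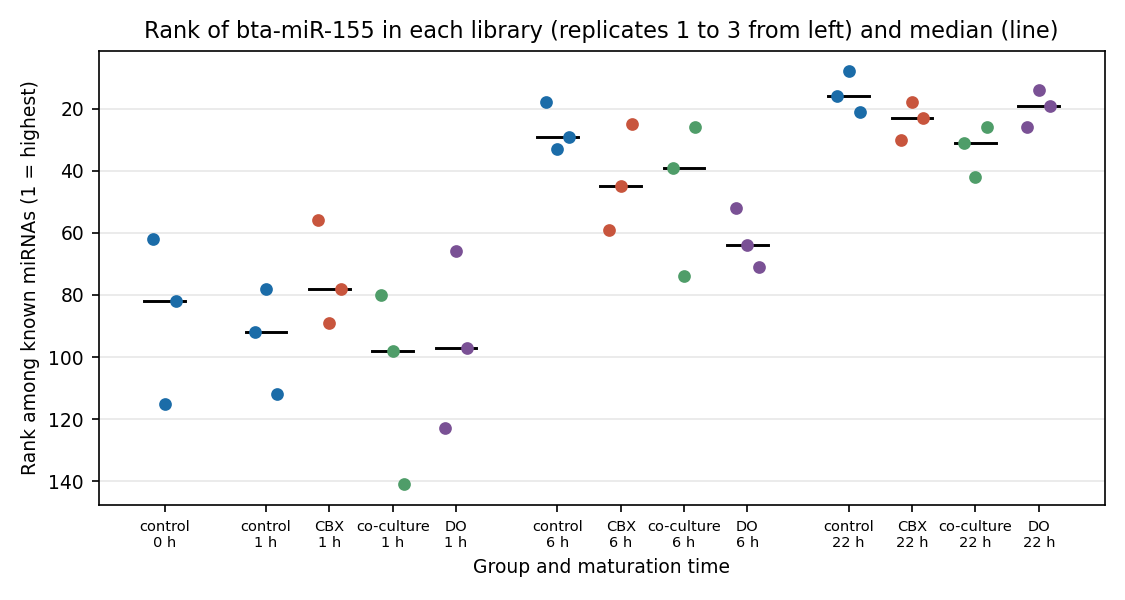
Rank of bta-miR-155 among known miRNAs in each library, with 1 as the highest level at the top of the axis, replicates 1 to 3 from left to right and a line at the median of 3. Libraries at 22 h lie between ranks 8 and 42, and libraries at 1 h between 56 and 141.

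Gap junctions and contact with cumulus cells were the question behind the comparisons between groups at the same time. In edgeR, bta-miR-155 differed in 2 of the 18 comparisons, where a difference had to have a Benjamini-Hochberg adjusted p under 0.05 and a log2 fold change of 1 or more in size. These comparisons share control and other libraries, so they are not independent. It was lower in co-culture than in control oocytes at 22 h, and lower in DO than in CBX oocytes at 6 h. The study itself reported no differentially expressed miRNA between control and co-culture at any time. Its list for CBX against DO at 6 h does not include bta-miR-155. The edgeR fit used here tested 388 to 486 miRNAs in a comparison. It called 0 of 474 for CBX against control at 22 h and 0 of 445 for DO against control at 22 h. For DO against CBX at 6 h it called 10 of 426. The study did list differentially expressed miRNAs in all of these comparisons. Those against control were thus not reproduced here, so the fits differed in more than bta-miR-155. Fitted log2 fold changes over the 18 ran from -2.13 to 1.11. Their SEs and intervals use a variance that edgeR shares between miRNAs. They do not measure the spread of bta-miR-155 between replicates alone, and can be narrower than it. At an unadjusted p under 0.05, edgeR gave 10 comparisons, its robust option 4, the fit without the replicate number 5 and DESeq2 6.

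At 22 h co-culture oocytes had a log2 fold change of -1.67 against control (SE 0.29, 95% confidence interval -2.27 to -1.07, edgeR adjusted p = 0.0021). The control libraries held 840, 911 and 361 counts and the co-culture libraries 327, 95 and 204. The difference was downward in 3 of 3 pairs of the same replicate number, with differences of -1.61, -3.01 and -0.36 on the log2 scale. Of these, -3.01 and -0.36 lay outside the fitted interval. bta-miR-155 was the 1 miRNA called of 464 tested, or 0.216%, while 2.8% of the tested miRNAs had all 3 co-culture libraries below all 3 control libraries. The two-sided exact permutation p was 0.1, the smallest that 3 libraries against 3 can give. Without the replicate number as a block the log2 fold change was -1.82 and the edgeR adjusted p 0.37, and the second replicate carries the call, since the log2 fold change without it was -0.96 (edgeR adjusted p = 0.629). Over all alternatives the adjusted p of edgeR or DESeq2 lay between 6.8e-28, from the 4 libraries left without replicate 3, and 0.999. The summed level of the 10 cumulus and granulosa cell miRNAs moved with this comparison, at 12258 to 14262 CPM in control and 8268 to 10558 CPM in co-culture at 22 h. Without miR-21-5p, the largest of them, the sums were 3395 to 4757 CPM in control and 3657 to 5510 CPM in co-culture, so that they overlapped. bta-miR-212, which is known for its induction in granulosa cells by luteinizing hormone, was listed at 0 counts in all 39 libraries. The other members of the list were all detected, from 110 counts of miR-378 to 14720 of miR-21-5p, with 351 of miR-132. The part of miR-21-5p and its list in the result was not tested.

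At 6 h DO oocytes had a log2 fold change of -1.14 against CBX (SE 0.29, interval -1.71 to -0.57, edgeR adjusted p = 0.0054). The DO libraries held 169, 32 and 34 counts and the CBX libraries 117, 60 and 205, and the libraries overlapped. The paired differences were 0.29, -1.01 and -2.95 on the log2 scale, so 2 of 3 pairs were lower, and the exact permutation p was 0.2. Of these differences, 0.29 and -2.95 lay outside the fitted interval. In this comparison 10 of 426 miRNAs, or 2.35%, were called. The call rests on the third replicate, without which the log2 fold change was -0.27 (edgeR adjusted p = 0.975), and it was also absent without the second (-1.25, edgeR adjusted p = 0.318) and without the replicate number as a block (-1.41, edgeR adjusted p = 0.996). Without the first replicate the log2 fold change was -2.01 (edgeR adjusted p = 5.1e-06, the lowest of the alternatives, of which DESeq2 gave the highest, 0.997). The blood and immune cell miRNAs summed to 1445 to 4262 CPM in DO and 1815 to 1969 CPM in CBX at 6 h. Of this sum, miR-223, the neutrophil and monocyte miRNA, made up 2664 CPM in the second DO library alone, and the part of these miRNAs was not tested.

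The largest fitted difference was between DO and control at 6 h, and it did not pass the threshold in edgeR. Its log2 fold change of -2.13 (SE 0.31, interval -2.90 to -1.36) had the smallest p of the 388 miRNAs tested, but the edgeR adjusted p was 0.204. All 3 pairs were lower, with differences of -2.04, -1.73 and -2.32 on the log2 scale, and the libraries did not overlap, which held in this direction for 5.15% of the miRNAs tested. The exact permutation p was again 0.1. This comparison passed the threshold with DESeq2 (adjusted p = 0.0035), with known miRNAs alone (edgeR adjusted p = 0.018), without the low-count filter (edgeR adjusted p = 0.042) and without replicate 2 (edgeR adjusted p = 0.034), and over all alternatives the adjusted p lay between 0.0035 and 0.595 while the log2 fold change kept its sign. Without the control library of 20180 counts it was -2.08. The blood and immune cell miRNAs summed to 689 to 1568 CPM in control against 1445 to 4262 CPM in DO, and their part in the result was not tested. edgeR called 0 of the 388 miRNAs, with 15 at an unadjusted p under 0.05.

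The other 15 comparisons were not past the threshold in edgeR, and their intervals remained wide. Against control at 1 h the log2 fold change was 1.03 in CBX (interval 0.18 to 1.89, edgeR adjusted p = 0.997), -0.53 in co-culture (-1.57 to 0.52) and -0.28 in DO (-1.52 to 0.96). Against control at 6 h it was -0.91 in CBX (-2.23 to 0.42) and -1.09 in co-culture (-2.39 to 0.21). Against control at 22 h it was -0.96 in CBX (-1.73 to -0.19, edgeR adjusted p = 0.422), with all 3 pairs lower, and -0.50 in DO (-1.25 to 0.25). DO and co-culture oocytes, both denuded, differed by 0.25 at 1 h (-1.16 to 1.66), -1.15 at 6 h (-1.81 to -0.50, edgeR adjusted p = 0.121, or 0.0012 without the low-count filter, where it was -1.09, with a range of 0.0012 to 1 over all alternatives and 0.473% of the miRNAs called) and 1.11 at 22 h (0.35 to 1.88, edgeR adjusted p = 0.347), as DO over co-culture. The sign of this contrast at 6 h was thus the opposite of that at 22 h, and the difference between these times was not tested. CBX and co-culture oocytes differed by -1.56 at 1 h (-2.53 to -0.59, edgeR adjusted p = 0.712), -0.04 at 6 h (-1.09 to 1.01) and -0.66 at 22 h (-1.68 to 0.36), as co-culture over CBX. DO over CBX was -1.36 at 1 h (-2.21 to -0.51, edgeR adjusted p = 0.091), where 1.46% of the miRNAs were called, and 0.47 at 22 h (0.04 to 0.91, edgeR adjusted p = 0.991), where 0.232% were.

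**Figure D4:**
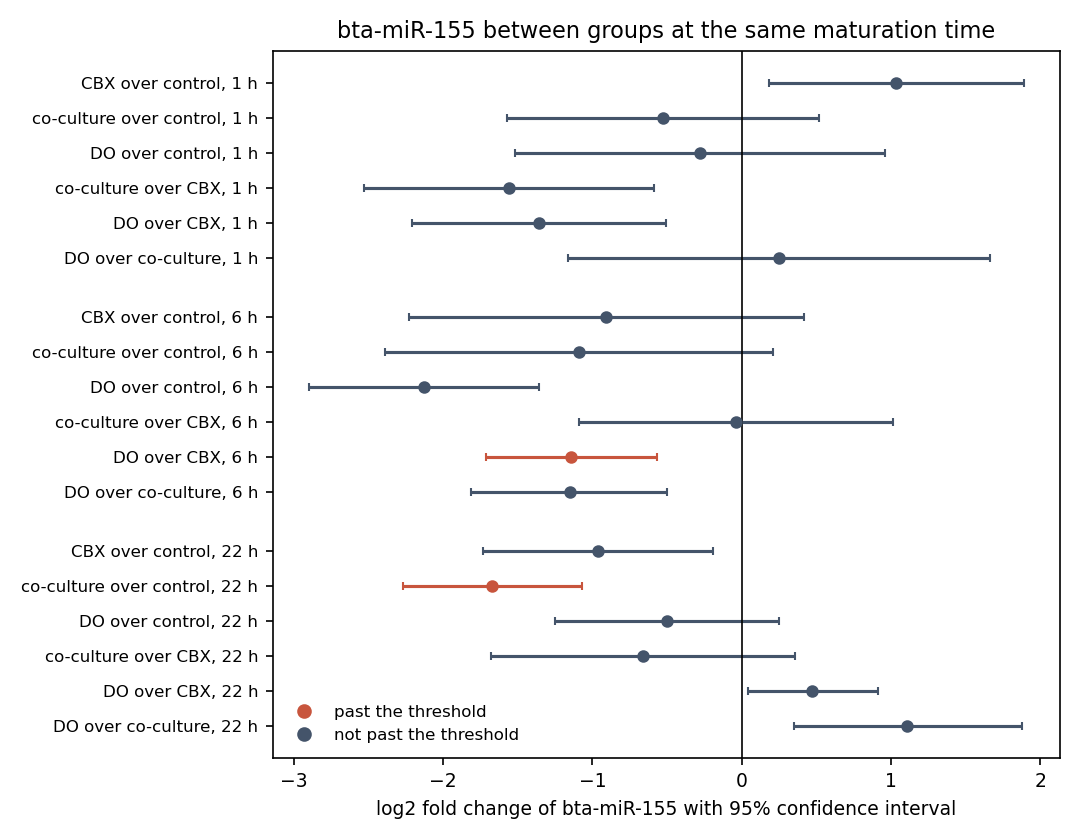
Fitted log2 fold change of bta-miR-155 (horizontal axis) with its 95% confidence interval in each of the 18 comparisons between groups at 1, 6 and 22 h, with the comparisons past the threshold in red. The intervals use a variance that edgeR shares between miRNAs. The points past the threshold are DO over CBX at 6 h, at -1.14, and co-culture over control at 22 h, at -1.67, and the point farthest from 0, at -2.13, is DO over control at 6 h.

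All 3 time points were then joined into 9 pairs of libraries with the same time and replicate number. Co-culture oocytes had a difference of -1.08 ± 1.12 against control in mean log2 CPM (SD of 9 pairs, 7 of 9 lower, exact two-sided sign-flip permutation p = 0.023, 0.129 after adjustment over the 6 pairings of groups). DO oocytes had a difference of -0.93 ± 1.06 against control (6 of 9 pairs lower, exact permutation p = 0.043, adjusted 0.129), and CBX oocytes one of -0.28 ± 1.43 (6 of 9 lower, exact permutation p = 0.547, adjusted 0.656). None of the 6 pairings passed at an adjusted p under 0.05, and the other exact permutation p-values were 0.066 for co-culture against CBX, 0.309 for DO against CBX and 0.789 for DO against co-culture. The pairs come from 3 replicate numbers and are not fully independent. With 1 replicate number left out, the difference from control ran from -1.44 to -0.59 (without replicate 2) in co-culture, from -1.13 to -0.61 (without replicate 1) in DO and from -0.74 (without replicate 3) to -0.02 (without replicate 2) in CBX.

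miR-21-5p, a miRNA that is abundant in oocytes and cumulus cells, gave a different course in the same libraries. Its level in control oocytes was 4166 ± 1229 CPM at 1 h, 3276 ± 58.6 CPM at 6 h and 9013 ± 1363 CPM at 22 h (SD, n = 3), so that its mean was not higher at 6 h. Averaged over the 3 libraries, the counts of bta-miR-155 were 7.83% of those of miR-21-5p in control at 1 h, 84.7% at 6 h and 83.1% at 22 h. In DO oocytes the ratio was 7.41% at 1 h, 15.9% at 6 h and 94.4% at 22 h. It went from 13.8% through 48.0% to 102% in CBX and from 4.94% through 59.5% to 45.4% in co-culture. From 6 to 22 h the mean ratio stayed nearly flat in control, with single libraries at 56.2% to 126% and 50.4% to 127%. In co-culture the mean ratio was lower, while single libraries spanned 14.6% to 134%, and then 35.2% to 63.9%, so its direction is unsettled. In mean log2 CPM, bta-miR-155 in co-culture went from 10.36 to 11.1 and miR-21-5p from 11.7 to 12.29. Mean levels of both miRNAs were higher at 22 h than at 6 h in both groups. In CBX at 22 h the ratio spanned 43.3% to 185%. The study listed miR-21-5p as lower in CBX than in control oocytes at 22 h. Its means at that time were 4169 ± 804 CPM in CBX and 9013 ± 1363 CPM in control (SD, n = 3). The edgeR fit used here nevertheless called it in 0 of the 18 comparisons, with 3 at an unadjusted p under 0.05.

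From 1 to 6 h and between groups, other miRNAs known to respond to NF-kB or inflammation were close to the background of all miRNAs. Of the 15 in the list, 10 passed the low-count filter over the 13 conditions, 3 of these had a higher mean at 6 h than at 1 h over the 4 groups, and 0 were higher by at least 1, with a median of -0.09. Over all 598 miRNAs, 295 were higher at 6 h, bta-miR-155 was the 1 higher by at least 1, and the median was -0.01. In edgeR 0 of 139 tests of list members between groups were past the threshold, with 7 at an unadjusted p under 0.05. These tests include miR-21-5p in CBX against control at 22 h, which the study did report as different. Over all miRNAs 21 of 7883 tests were past it, with 413 at an unadjusted p under 0.05. miR-146a, which damps NF-kB signalling through IRAK1 and TRAF6 and often accompanies miR-155 in immune cells, had a mean of 1307 CPM and a difference of -0.35 from 1 to 6 h. The members with the largest differences were miR-223 at 0.60 and miR-222, a repressor of the cell cycle inhibitor p27, at 0.37, which had 206 and 23 counts in all and did not pass the filter, miR-187, which dampens cytokine output of macrophages, at -0.50, and miR-31 at -0.37. miR-21-3p and miR-212 were listed at 0 in all libraries. From 1 to 22 h the members that passed the filter ran from -0.34 (miR-146a) to 0.73 (miR-221). In control from 6 to 22 h miR-221 had the largest difference of the 146 known miRNAs, at 1.85, on 209 counts over all libraries.

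Most of the listed immune and blood cell miRNAs had few counts, with miR-146a, miR-150 and, in 1 library, miR-223 as exceptions. Of 8 such miRNAs, the leukocyte miRNA miR-142-3p was listed at 0 in all 39 libraries, and miR-142-5p had 22 counts, the erythroid miR-144 and miR-451 had 7 and 17, and miR-486 had 57, against 6139 for bta-miR-155. The myeloid miR-223 had 206 counts, most of them in the second DO library at 6 h, at 2664 CPM, where bta-miR-155 was at 550 CPM. miR-150 and miR-146a, which are also expressed outside the blood, had 1318 and 4187 counts, were present in every library and passed the filter. Only these 2 members passed, with a median difference of -0.24 between 1 and 6 h. They had 0 calls in 36 edgeR tests, against 21 of 7883 over all miRNAs, and 0 at an unadjusted p under 0.05. Below the filter, the difference was 0.60 for miR-223, 0.31 for miR-142-5p, 0.11 for miR-144, -0.18 for miR-451 and -0.13 for miR-486. Those members had too few counts to be tested. The summed level of the list in control oocytes was 1576 to 2401 CPM at 1 h, 689 to 1568 CPM at 6 h and 1607 to 2074 CPM at 22 h, and in DO oocytes 1442 to 2290 CPM, 1445 to 4262 CPM and 1787 to 2269 CPM. Of the 10 cumulus and granulosa cell miRNAs, 7 passed the filter, with a median difference of -0.28 from 1 to 6 h and 0 calls in 103 edgeR tests, 9 of them at an unadjusted p under 0.05, against 413 of 7883 over all miRNAs. In bulk libraries a larger share of such cells and more RNA per cell cannot be told apart.

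The miRNAs whose pattern came closest to that of bta-miR-155 were named by the Pearson correlation of mean log2 CPM over the 13 conditions among the other 145 known miRNAs, as a description. They were bta-miR-122 (r = 0.81), bta-miR-30d (0.73), bta-miR-12030 (0.72), bta-miR-184 (0.68) and bta-miR-10b (0.68), with a median of -0.06 over the 145 and 14 above 0.5. Spearman's rho over the same means was 0.86 for bta-miR-122 and 0.66 to 0.75 for the other four. The points share the 39 libraries and their scaling. bta-miR-122, which in most animals marks the liver, was present in all libraries with a mean of 15105 CPM, but from 1 to 22 h it was higher by only 0.37 to 0.57 on the log2 scale. It was 1 of 4 liver and muscle miRNAs listed as markers of tissues that should be absent. Their sum ran from 7303 CPM in a co-culture library to 31178 CPM in a control library, both at 6 h. Another of them, miR-206, ran from 0 to 12587 CPM. These markers were thus not absent, and the reason was not tested. bta-miR-10b, a HOX cluster miRNA with a mean of 46970 CPM, was higher by 0.03 to 0.32, and bta-miR-30d by 0.12 to 0.35. bta-miR-184 was higher by 0.36 in co-culture to 1.95 in CBX, and bta-miR-12030 by 0.48 in CBX to 1.38 in DO. The span of bta-miR-155, at 2.64 to 4.54, was larger than that of all 5 in each group. At the other end stood bta-miR-29c (r = -0.82) and bta-miR-29b (r = -0.72), which share a seed and are known for targeting collagens and DNA methyltransferases. Over the single libraries in place of the means, the correlation with bta-miR-122 was 0.39 and that with bta-miR-29c -0.69, and the 5 highest shared 0 names with the 5 above.

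**Figure D5:**
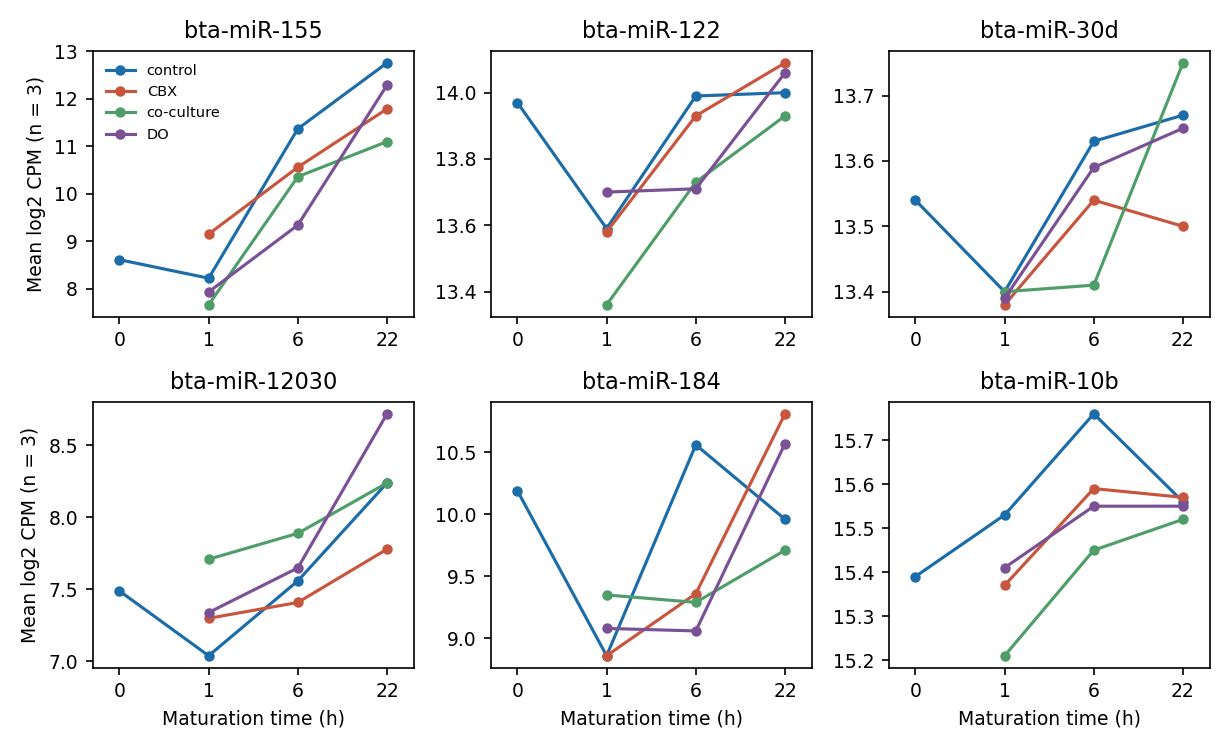
Mean log2 CPM of bta-miR-155 and of the 5 known miRNAs with the highest correlation to it, by group (colour) over 0, 1, 6 and 22 h of maturation (spaced evenly, n = 3 libraries a point), each panel with its own vertical axis. bta-miR-155 spans 7.66 to 12.76, whereas bta-miR-122, bta-miR-30d and bta-miR-10b each move by less than 1.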

How the data were processed

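The deposited values are raw counts for each mature miRNA, as whole numbers. Per the paper's methods, the authors trimmed adapters, removed duplicates by unique molecular identifier with UMI-tools (1.1.2 in the submitters' processing notes), aligned to ARS-UCD1.2 and assigned reads to miRBase or predicted miRNAs with miRPro, without normalization. Groups and replicate numbers come from the labels.

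Known and predicted counts were joined. CPM used TMM over the 39 libraries and log2 CPM a prior count of 2. Each of 18 comparisons used its own 6 libraries in edgeR 4.0.16 (R 4.3.3, quasi-likelihood test, edgeR 3 behaviour), filterByExpr (minimum count 10, total 15), TMM, the replicate number as a block (the ovary pool of the study's methods) and Benjamini-Hochberg adjustment over all miRNAs tested. The correlation of same-numbered libraries was above 0.1 for every number in 13 of the 18, with medians of 0.0573 to 0.392, and in DO against CBX at 6 h the lowest was 0.0498. Where numbers do not mark shared pools, p-values measure only the spread between these samples. Exact permutation tests used 512 sign assignments for 9 pairs. Procedures were tested on simulated data. For the fits these data were modelled on CBX against DO at 6 h alone, with the same dispersion for all miRNAs. The spread of bta-miR-155 between replicates was not simulated, so the simulation cannot speak for its calls. DESeq2 was 1.42.0. The miRNA and the lists were chosen with earlier results of these data known. Named miRNAs were bta-miR-155, the 5 most like it, its neighbours in rank, miR-21-5p, and NF-kB list members past the threshold or among the 3 with the largest change from 1 to 6 h. bta-miR-449a, bta-miR-1246, miR-146a, miR-221, miR-29b, miR-29c and the markers named singly were added after their values were seen.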

Additional observations from a re-analysis of the deposited data

How the results depend on the processing

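Both calls between groups needed the replicate number as a block. Of the 18 comparisons, 2 were called with it and 0 without it, and edgeR's robust option and 1 fit over the 36 libraries also gave 0. DESeq2 gave 1 (DO against control at 6 h), library sizes from the deduplicated reads gave 1 (co-culture against control at 22 h), and leaving out each replicate gave 1 to 4. The cause was not tested. Without the low-count filter 3 were called (DO against control and against co-culture at 6 h, and co-culture against control at 22 h), and with known miRNAs only 2, DO against control at 6 h in place of DO against CBX. The 3 libraries under 25000 counts, left out as an alternative chosen after seeing the data, are in neither called comparison, so that this bears on no call. Among single comparisons that were not called, the sign turned for DO over control at 1 h without replicate 1 (0.34, range -0.67 to 0.34), for DO over co-culture at 1 h with deduplicated reads (-0.17), without replicate 2 (-0.51) and without replicate 3 (-0.28, range -0.51 to 1.60), and for co-culture over CBX at 6 h with known miRNAs only (0.02), without replicate 2 (0.37) and without replicate 3 (0.00, range -0.64 to 0.37). In the paired differences, co-culture against control passed relative to miR-92a and miR-93 (-1.12, adjusted exact permutation p = 0.047), and DO over co-culture turned with deduplicated reads (-0.02) and without replicate 2 (-0.45, range -0.45 to 0.59).

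Of the time differences, that between 0 and 1 h in control turned with deduplicated reads (0.10), without the 3 small libraries (0.13) and without replicates 1 (0.12) or 3 (0.22), with a range of -1.52 to 0.22 over the replicates left out. From 0 to 22 h in control that range was 2.93 to 4.84, from 1 to 22 h in CBX 1.83 to 3.64, and from 6 to 22 h in DO 2.52 to 3.67. All other time differences kept a positive sign under every alternative run.

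Among known and predicted miRNAs together the ranks were 241, 301, 59 and 24 in control at 0, 1, 6 and 22 h, 186, 87 and 43 in CBX, 342, 93 and 66 in co-culture, and 303, 184 and 33 in DO at 1, 6 and 22 h. With replicates left out, the rank at 6 h was 20 to 35 in control and 31 to 55 in CBX. Of the 5 most similar miRNAs, 3 remained with CPM of the total and with deduplicated reads, 0 over the 39 libraries, and 1 to 3 without a replicate. Depth limits the levels at 0 and 1 h, where libraries held 5 to 146 counts of bta-miR-155.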
